A study of Mus musculus with 22 samples.

Results

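Allergic mouse lungs of a late and an early stage of challenge were compared directly, without subtracting control lungs. The members were defined by their labels, with earlier results of these data known: the 8 libraries of lungs challenged with an aerosol of ovalbumin (OVA), the egg-white protein used as an allergen, among 22 lung libraries in the series. Of these, 4 followed OVA on 3 consecutive days (short OVA) and 4 followed OVA 3 times a week over 4 weeks, a protocol titled 30 days (long OVA). All mice were of 1 strain, spelled BABL/c in the labels, with no engineered allele named. Sensitization was intraperitoneal, with a first injection when mice were 49 days old and a boost at 63 days, and challenge began at 70 days, so that the long OVA mice were older when their lungs were taken. The same 2 protocols with phosphate-buffered saline (PBS) in sensitized mice of that strain gave 3 short and 3 long libraries, which are used beside the OVA values. Protocol, age at sampling and any batch of sequencing cannot be told apart, and no label says that the libraries of a group came from separate experiments, so that p-values measure only the spread between these samples.

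In the type 2 response to an inhaled allergen, T helper 2 cells and innate lymphoid cells release interleukins 4, 5 and 13 (IL-4, IL-5 and IL-13). IL-5 sustains eosinophils, IL-13 drives mucus production, and IL-4 and IL-13 act through the transcription factor STAT6 on macrophages, epithelium and smooth muscle. Weeks of repeated challenge are used to model remodelling of the airway wall, and in some protocols they leave less eosinophilic inflammation than the first challenges do.

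Expression is given as FPKM, fragments per kilobase of transcript scaled to sequencing depth, and differences as log2 fold changes of FPKM + 0.5, long minus short, ± SE. Values after ± beside an FPKM are SDs over the libraries of a group. A gene passed when its adjusted p in limma was under 0.05, and rose, fell, higher and lower below refer to such genes unless values alone are given. Levels are compared within a gene only, since the deposited gene values do not keep 1 scale across genes. A summed FPKM of a list therefore weights its genes unequally, can rest on few of them, and is compared between groups only. In whole lung, fewer cells of a type and less RNA per cell cannot be told apart. The gene lists, too, were chosen with earlier results of these data known.

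Promoter sequences are shown for 4 genes from lists whose members moved together, type 2 genes with their targets and cell cycle genes. They come from RefSeq on GRCm38.p6, cover the part of the 250 bases before the transcription start that lies outside the annotated gene, and are written 5′ to 3′ on the strand of the gene. In the first pair, capitals mark the STAT6 motif, TTC and GAA with any 4 bases between them, which reads the same on both strands.
Il4, minus strand, chr11:53618670-53618915: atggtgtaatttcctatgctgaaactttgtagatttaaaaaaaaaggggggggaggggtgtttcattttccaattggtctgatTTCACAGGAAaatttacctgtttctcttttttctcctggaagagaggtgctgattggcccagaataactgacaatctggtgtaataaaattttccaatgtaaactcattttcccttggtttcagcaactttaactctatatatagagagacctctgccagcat
Retnla, plus strand, chr16:48842359-48842550: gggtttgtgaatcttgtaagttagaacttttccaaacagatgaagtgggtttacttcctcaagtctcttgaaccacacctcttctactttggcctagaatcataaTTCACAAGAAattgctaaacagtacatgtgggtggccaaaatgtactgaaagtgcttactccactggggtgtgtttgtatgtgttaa
In the second pair, capitals mark TTTGAA, the cell cycle homology region (CHR), an element of promoters active late in the cell cycle, which was searched on both strands. Cdk1 has 2 matches in its 250 bases, at -71 and -15 from the transcription start. The match at -15 lies in the 26 bases left out, so only that at -71 is shown.
Cdk1, minus strand, chr10:69352939-69353162: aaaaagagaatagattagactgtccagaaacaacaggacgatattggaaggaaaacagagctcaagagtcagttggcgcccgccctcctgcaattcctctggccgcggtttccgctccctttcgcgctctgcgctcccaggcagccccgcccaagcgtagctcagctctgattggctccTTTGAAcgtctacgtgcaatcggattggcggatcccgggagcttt
Mki67, minus strand, chr7:135716380-135716629: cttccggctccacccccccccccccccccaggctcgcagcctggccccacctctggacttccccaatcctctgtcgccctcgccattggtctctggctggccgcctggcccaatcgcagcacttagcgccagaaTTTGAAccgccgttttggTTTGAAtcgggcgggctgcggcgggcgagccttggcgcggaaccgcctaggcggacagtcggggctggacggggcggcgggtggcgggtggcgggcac
Each of these 4 genes was lower in long OVA. The STAT6 letters stood in 3 of 14 promoter windows of the type 2 cytokine and chemokine list, in 5 of 20 windows of the list of alternative macrophage activation and in 1 of 24 of the cell cycle list. They stood in 5.85% of all 32851 windows and in 4.69% of the 15514 windows of genes tested. The CHR letters stood in 7 of 24 windows of the cell cycle list, but also in 3 of 14 of the type 2 list and 4 of 20 of the alternative macrophage list. They stood in 16.0% of all windows and in 11.4% of those of genes tested. Some genes have several windows, and a match describes letters, not binding.

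Of 15516 genes tested, 8515 passed (54.9%), 5009 of them higher in long OVA (32.3%) and 3506 lower (22.6%). By at least 2-fold, 585 rose (3.77%) and 468 fell (3.02%). The 4 long and 4 short values did not overlap for 7692 genes (49.6%). Changes of less than 2-fold thus form most of the calls, and each count of list members below is to be read against these shares. In PBS lungs, 971 genes passed (6.26%), 659 higher and 312 lower in the long protocol. These PBS calls rested on few libraries: leaving out long PBS library 2, long PBS library 1 or short PBS library 1 gave 181, 279 and 221 genes.

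The direction of a change followed transcript length. Across 15315 genes, which are not independent replicates, the log2 fold change had a Spearman rho of 0.55 with length in OVA lungs and 0.29 in PBS lungs. When genes were ranked by length, 209 rose and 1563 fell in the fifth with the shortest transcripts, against 2107 higher and 135 lower at the opposite end. By library, deviations followed length with a rho of -0.51 to -0.42 in short OVA and 0.31 to 0.39 in long OVA. With each library's length trend removed, 3312 genes were higher (21.6%) and 3737 lower (24.4%), rho was -0.01, and the fifth of shortest transcripts held 637 higher and 802 lower genes. Of the 5009 higher genes 2745 passed again in the same direction and 204 in the opposite one, and of the 3506 lower genes 2514 passed again and 8 in the opposite direction. The split also moved with scaling, to 4148 higher and 4281 lower with median-of-ratios scaling and 4283 and 4138 with quantile scaling. Median-of-ratios scaling brought the median over all genes from 0.07 to 0.00. Counts of list members are therefore also given with the length trend removed where they differ, and so are values of single genes that it moved by over 1.5 times. Values with the length trend removed are not free of other sequence trends. Their rho with the GC content of transcripts was 0.27 in OVA lungs, against 0.07 as deposited, and no GC trend was removed.

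**Figure D1:**
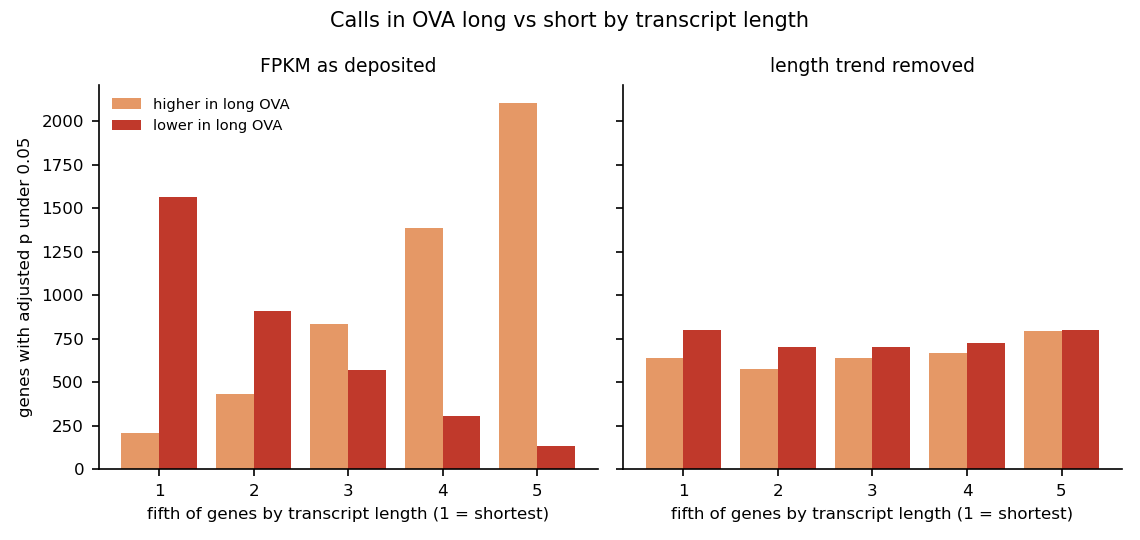
Genes that passed in long against short OVA (adjusted p under 0.05, bars from 0) in 5 equal groups of genes by transcript length, for FPKM as deposited (left) and with each library's length trend removed (right). As deposited, 1563 of the lower genes and 209 of the higher genes lie in the shortest group, against 135 and 2107 in the longest, and the 2 directions are near balance after removal.

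Genes of the lung's own cells were present at high levels in both groups. The surfactant gene Sftpc lay between 7002 and 7824 FPKM in short and between 4660 and 5972 in long OVA, and the club cell gene Scgb1a1 between 33787 and 45641 and between 30695 and 46842. Marco, a scavenger receptor of alveolar macrophages, was near 0 in both (0.040 to 0.525 and 0.011 to 0.462 FPKM). Between 22.6% and 25.3% of 20938 genes were listed at 0 in the 8 libraries. Read counts were not used here. The steps of the FPKM values gave 20.5 to 22.1 fragments per kilobase at 1 FPKM in short and 17.1 to 20.6 in long OVA.

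Type 2 cytokines and chemokines were lower in long OVA. Of 17 tested members of 21 listed, 15 fell, 13 of them by at least 2-fold, and none rose, with a median of -2.17 against 0.07 over all genes tested. With the length trend removed 14 fell, with a median of -1.79. Il3, Il9, Il25 and Il31 were below the filter on low values, and the 2 tested members that did not pass were the alarmin gene Tslp (-0.25, adjusted p = 0.157) and Areg, an epidermal growth factor receptor ligand (-0.27, adjusted p = 0.273).

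Il5 (chr11:53720794-53725106), the eosinophil growth factor, stood at 9.95, 9.92, 5.37 and 7.67 FPKM in short OVA and at 0.179, 0, 0.663 and 0.529 in long OVA. Every long library lay below every short one, and the change was -3.41 ± 0.25 (adjusted p = 3.61e-07). Il13 (chr11:53631324-53634702), the cytokine of mucus production, stood at 10.7, 9.73, 4.42 and 7.38 FPKM and at 0.537, 0.0510, 0.483 and 0.468, a change of -3.25 ± 0.24. Il4 (chr11:53602982-53618669), the T helper 2 cytokine whose promoter is shown above, stood at 6.13, 4.73, 2.18 and 2.35 FPKM and at 0.175, 0, 0.415 and 0.0974, a change of -2.62 ± 0.26. The 3 genes lie near each other on chromosome 11. The Il4 mean over PBS lungs was 0.0196 FPKM in the short protocol and 0.0233 in the long one. The inhibitory cytokine Il10, of the T cell list, and Il21, a T cell cytokine that acts on B cells, fell too, by 2.07 ± 0.25 and 1.61 ± 0.21 on the log2 scale.

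Chemokines that draw eosinophils and monocytes showed the same direction. The eotaxin Ccl24 (chr5:135569937-135573049) stood at 95.7, 69.8, 45.6 and 57.3 FPKM in short and 4.84, 2.19, 2.40 and 3.97 in long OVA, a change of -4.14 ± 0.29 (adjusted p = 3.26e-07). The monocyte chemokines Ccl7 and Ccl2, which are neighbours on chromosome 11, changed by -3.53 ± 0.16 and -3.44 ± 0.26, from 149 ± 20.9 to 12.6 ± 2.90 and from 98.7 ± 18.3 to 8.77 ± 2.61 FPKM. The eotaxin Ccl11 kept a higher level, with 514, 494, 288 and 411 FPKM in short and 114, 74.8, 92.6 and 91.2 in long OVA, against 9.83 and 10.9 on average in short and long PBS. Its change was -2.17 ± 0.26. The alarmin Il33 (chr19:29925114-29960718), released by injured lung cells, had a smaller change, of -0.71 ± 0.12 (-0.37 with quantile scaling), from 423 ± 70.3 to 258 ± 33.8 FPKM. Its receptor gene Il1rl1 fell by 1.34 ± 0.19 on the log2 scale. For each of these 6 genes, every long value lay below every short one.

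**Figure D2:**
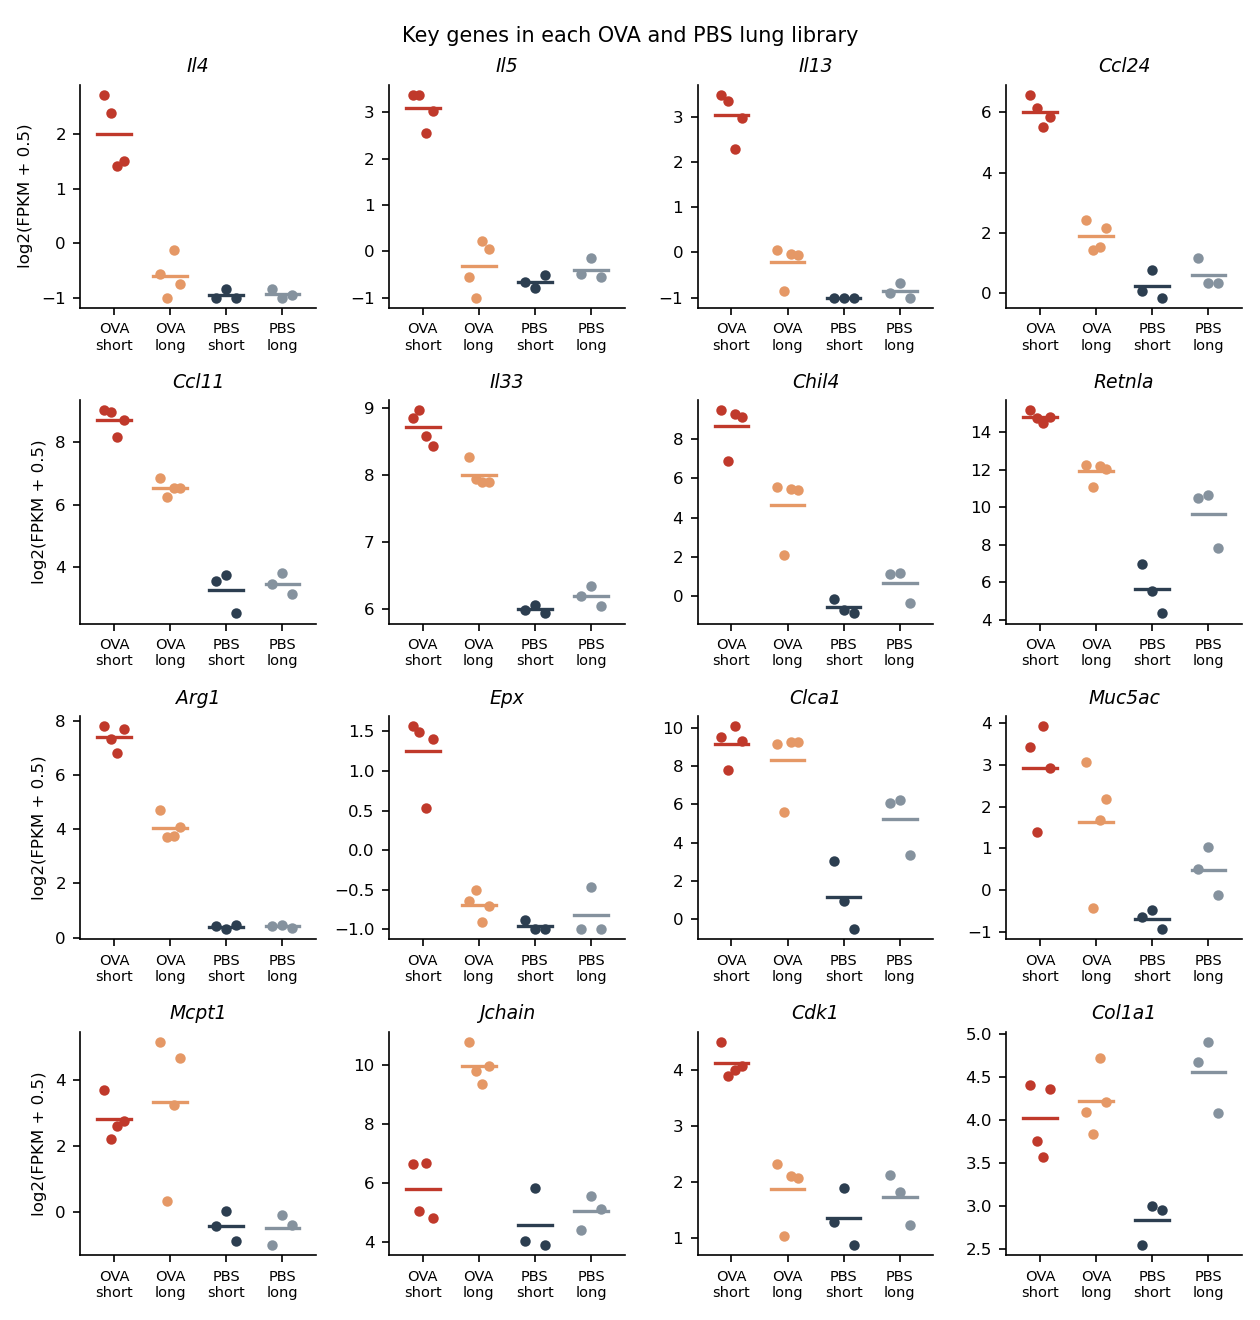
Each point is 1 library and each bar the mean of its group, in log2(FPKM + 0.5), for 16 genes in short and long OVA (4 libraries each) and short and long PBS (3 each). Il5, Il13 and Ccl24 do not overlap between the OVA groups, Clca1 and Muc5ac overlap with 1 low library in each OVA group, and Jchain is high in all 4 long OVA libraries (653 to 1768 FPKM).

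Alternative macrophage activation, the state that IL-4 and IL-13 induce, and other IL-13 response genes fell nearly as a whole: 20 of 21 fell, 16 by at least 2-fold, with a median of -1.70 (20 lower and a median of -1.67 with the length trend removed). Retnla (chr16:48842551-48844461), a secreted resistin-like protein of these macrophages and of airway epithelium, stood at 36918, 28306, 22787 and 28592 FPKM in short and at 4965, 2193, 4816 and 4294 in long OVA. The groups do not overlap and the change was -2.89 ± 0.61 (adjusted p = 0.00126), but it did not pass with quantile scaling (-0.94, adjusted p = 0.190). Arg1 (chr10:24915221-24927484), the arginase of these macrophages, stood at 223, 158, 112 and 205 FPKM and at 25.4, 12.7, 12.9 and 16.6, a change of -3.34 ± 0.22. Alox15, a lipoxygenase of macrophages and eosinophils, changed by -3.37 ± 0.57, the lectin Cd209a of dendritic cells and macrophages by -2.25 ± 0.18, and Socs1, an inhibitor of cytokine signalling, by -2.20 ± 0.22. The list's other member, the IL-13 receptor chain Il13ra1, stood at 0.04 (adjusted p = 0.704).

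The chitinase-like genes Chil3 and Chil4, near-identical in sequence so that reads can be split between them, differed in size of change. Chil3 changed by -1.58 ± 0.37, from 5834 ± 943 to 1956 ± 402 FPKM. Chil4 stood at 712, 120, 618 and 554 FPKM in short and 46.7, 3.74, 44.1 and 42.2 in long OVA, a change of -4.06 ± 0.75 that ran from -3.21 without long OVA library b to -4.65 without short OVA library 2. Those same 2 libraries were the lowest of their group for several mucus genes. Mmp12, the macrophage elastase, did not pass, at 94.3 ± 37.7 and 103 ± 65.7 FPKM (-0.01 ± 0.53, adjusted p = 0.991).

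Mucus and goblet cell genes overlapped between the stages, except for 1 of them. Of 21 tested, 2 fell, none rose and 19 did not pass, with a median of -0.26 (-0.31 with the length trend removed). Clca1 (chr3:145003817-145032776), a secreted goblet cell product, stood at 733, 220, 1081 and 634 FPKM in short and at 565, 48.9, 609 and 615 in long OVA (-0.85 ± 0.96, adjusted p = 0.479). Short library 2 and long library b lay apart from the others. The mucin Muc5ac stood at 10.3, 2.12, 14.8 and 7.09 FPKM and at 7.96, 0.242, 2.73 and 4.08 (-1.29 ± 0.65, adjusted p = 0.111). Muc5ac turned on single libraries: it stood at -0.60 (adjusted p = 0.349) without long OVA library b, and passed, lower in long OVA, without long OVA library a (-1.77), without short OVA library 2 (-1.80) and with the length trend removed (-1.92). The other gel-forming mucin, Muc5b, did not pass, at 160 ± 76.7 and 292 ± 149 FPKM (0.79 ± 0.69, adjusted p = 0.357).

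The 2 goblet cell genes that fell were Agr2, a protein disulfide isomerase needed to fold mucins, at -1.87 ± 0.54 (adjusted p = 0.00988), and the trefoil factor Tff2, at -1.997 ± 0.76 (adjusted p = 0.0384). Tff2 lost its call with the length trend removed (-1.46) and without any 1 of long libraries b and c and short libraries 1, 3 and 4, and its change was -1.30 without long library b. Of the list, 5 genes were lower without long OVA library a or without short OVA library 2, but 2 were higher and 1 lower, with a median of 0.14, without long OVA library b, and 1 was higher and 1 lower without short OVA library 4. PBS lungs carried some of this signal: Clca1 reached 67.4 and 73.3 FPKM in long PBS libraries 1 and 2, and Retnla 1430 and 1647. Long against short PBS passed for both, higher by 4.05 ± 1.10 for Clca1 (adjusted p = 0.0468) and by 4.02 ± 0.71 for Retnla (adjusted p = 0.00874).

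Eosinophil genes split. Of 12 tested, 7 fell, 6 of them by at least 2-fold, and 3 rose, with a median of -0.82 (5 lower, 3 higher and -0.49 with the length trend removed). The summed FPKM of the list was 238 to 411 in short and 66.5 to 79.8 in long OVA, against 62.8 to 86.0 over the PBS lungs. Eosinophil peroxidase Epx (chr11:87864000-87875536) stood at 2.46, 2.32, 0.943 and 2.14 FPKM in short and 0.141, 0.203, 0.0314 and 0.113 in long OVA (-1.94 ± 0.20, adjusted p = 4.21e-06). The eotaxin receptor Ccr3 changed by -2.54 ± 0.23, the granule protein Prg2 by -2.10 ± 0.26, and Cebpe, a transcription factor of granulocyte maturation, by -1.69 ± 0.15. The eosinophil ribonuclease Rnase2a changed by -3.19 ± 0.49, and Ear2, a related enzyme counted with alveolar macrophage genes, by -1.86 ± 0.21. The 3 that rose, named after their values were seen, were Il5ra, the IL-5 receptor chain (0.87 ± 0.20, from 0.904 ± 0.306 to 2.11 ± 0.798 FPKM), the lectin Siglecf (0.43, and not passed without long library b) and the ribonuclease Ear1 (0.56, and 1.03 with the length trend removed). Siglecf is also made by alveolar macrophages, and Il5ra by activated B cells.

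Mast cell and basophil genes did not move as 1 group. Of 14 tested, 2 rose and 2 fell, a smaller share than over all genes (4 and 1 with the length trend removed). Kit, the stem cell factor receptor, counted here with mast cell genes though its cell of origin was not tested, rose by 0.86 ± 0.10 (0.47 with the length trend removed), from 58.4 ± 4.02 to 106 ± 9.74 FPKM. Mcpt8, a protease of basophils, fell by 1.88 ± 0.20 on the log2 scale, from 1.83 ± 0.507 to 0.135 ± 0.151 FPKM. Mcpt1, a protease of mucosal mast cells, spread widely, at 12.4, 4.09, 5.58 and 6.25 FPKM in short and 34.9, 0.763, 8.89 and 24.6 in long OVA (0.53 ± 0.78, adjusted p = 0.594). Without long OVA library b, 6 genes of the list rose and 1 fell.

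More T cell and cytotoxic genes fell than rose. Of 21 T cell genes 13 fell and 2 rose, with a median of -0.78 (13 lower, none higher and -0.89 with the length trend removed), and their summed FPKM was 105 to 134 in short and 47.5 to 66.4 in long OVA. Il2ra, the IL-2 receptor chain of activated and regulatory T cells, stood at 12.7, 13.6, 9.74 and 10.4 FPKM and at 2.36, 2.24, 3.05 and 3.19 (-1.92 ± 0.28). Foxp3, the factor of regulatory T cells, did not pass (-0.37 ± 0.20, adjusted p = 0.133), but passed, lower, with the length trend removed (-0.58). Of 16 cytotoxic and natural killer genes 8 fell and none rose, with a median of -0.59 (6 lower, 1 higher and -0.30 with the length trend removed), among them granzyme Gzmb at -2.28 ± 0.19, from 27.2 ± 4.40 to 5.30 ± 1.52 FPKM, and Ifng, the type 1 cytokine, at -1.25 ± 0.14. The 2 T cell genes that rose, Gata3 (0.37) and Ikzf2 (0.46), did not pass with the length trend removed, where Ikzf2 turned to -0.24, and Ikzf2 did not pass without short library 1.

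B cell and plasma cell genes did not move as 1 group. Of 19 tested, 5 rose and 1 fell, a smaller share than over all genes, with a median of -0.26 (5 higher, 2 lower and -0.16 with the length trend removed). Jchain (chr5:88519809-88527891), which joins polymeric immunoglobulins, had the largest log2 increase of all genes tested, at 98.4, 32.6, 101 and 27.2 FPKM in short and 1768, 888, 653 and 1008 in long OVA (4.20 ± 0.52, adjusted p = 1.59e-05). All 4 long libraries lay above every short one, and PBS lungs stayed between 14.4 and 55.7 FPKM. Tnfrsf17, the survival receptor of plasma cells, rose by 1.10 ± 0.15, from 0.231 ± 0.113 to 1.08 ± 0.392 FPKM. The others that rose were Sdc1, a surface proteoglycan of plasma cells and epithelium (0.29 ± 0.06, and 0.18 with the length trend removed), Derl3 (0.67), which did not pass without long library a or d or any 1 short library, and Prdm1 (0.30, not passed at 0.06 with the length trend removed), while Xbp1, a factor of secretory cells, fell by 0.35 ± 0.08 on the log2 scale. The B cell gene Cd79a did not pass, at 29.6 ± 7.39 and 25.8 ± 11.4 FPKM. Immunoglobulin constant regions are not among the genes analysed here. Of 15 lymphoid follicle genes 6 fell and 1 rose (4 and 0 with the length trend removed), with the B cell chemokine Cxcl13 at -2.44 ± 0.46.

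**Figure D3:**
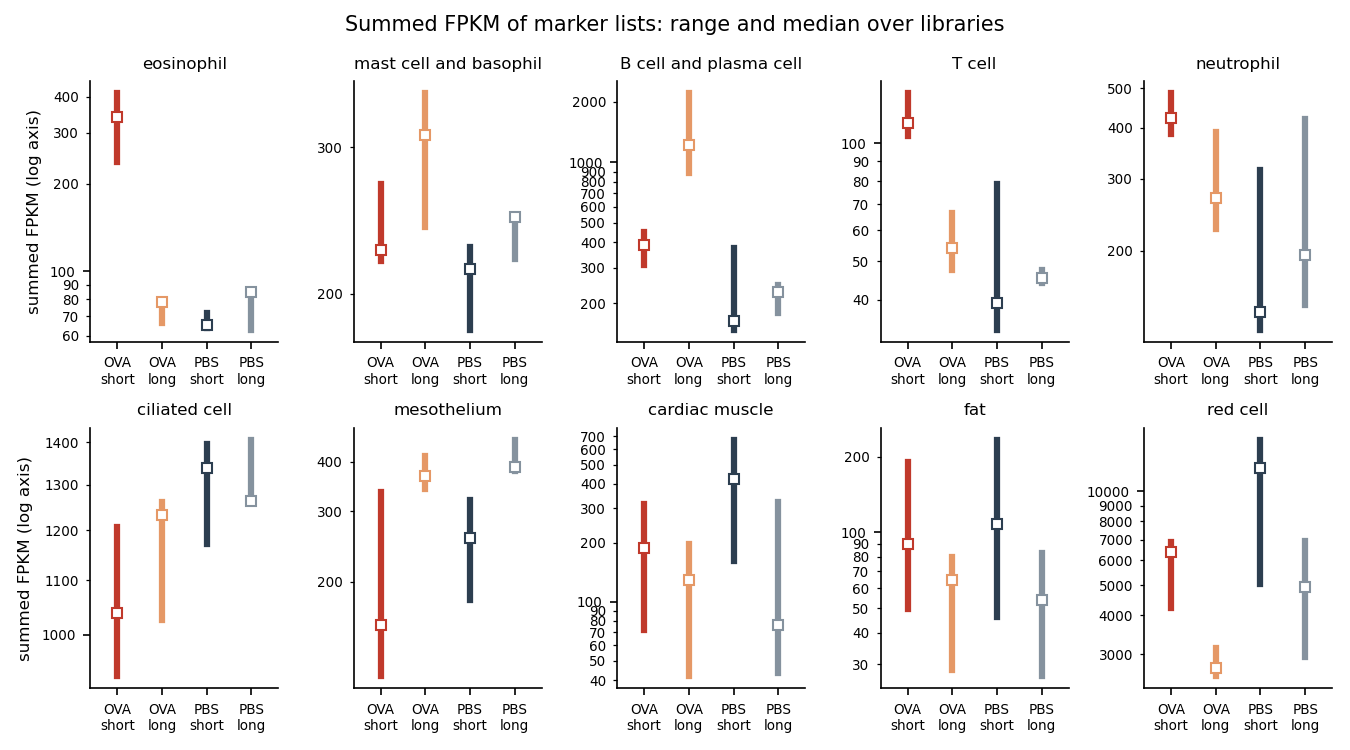
Summed FPKM of 10 marker lists (log axes), with the range of libraries as a bar and the median as a square, for short and long OVA (4 libraries each) and short and long PBS (3 each). The eosinophil sum is 238 to 411 in short OVA and 66.5 to 79.8 in long OVA, within the 62.8 to 86.0 of the PBS lungs. Each sum weights its genes unequally, so it does not measure cell numbers. The B cell and plasma cell sum is 308 to 450 and 880 to 2201, of which Jchain alone holds 27.2 to 101 in short and 653 to 1768 in long OVA. Mesothelium, cardiac muscle, fat and red cell lists show what tissue at the margin of the lung or blood each group carried.

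Every cell cycle gene tested was lower in long OVA: 28 of 28 fell, 20 by at least 2-fold, with a median of -1.28, and 28 of 28 fell with the length trend removed (-1.33). None of the 28 overlapped between the groups. Cdk1 (chr10:69335146-69352938), the mitotic kinase, stood at 22.2, 14.4, 15.5 and 16.4 FPKM in short and 4.50, 1.54, 3.80 and 3.68 in long OVA (-2.24 ± 0.29, adjusted p = 2.43e-05). Rrm2, the ribonucleotide reductase subunit of S phase, changed by -1.84 ± 0.18, and Pcna, the sliding clamp of DNA replication, by -0.96 ± 0.06. Mki67 changed least clearly, at 24.3, 21.7, 24.1 and 25.4 FPKM and 21.0, 9.80, 10.2 and 11.1 (-0.92 ± 0.34, adjusted p = 0.0344, and -1.66 with the length trend removed). Its long library a lay apart, and Mki67 did not pass when any 1 of the other 7 OVA libraries was left out (-0.96 to -0.81, adjusted p = 0.0506 to 0.0843). In PBS lungs none of the 28 passed, and the Cdk1 means were 2.15 FPKM (short) and 2.91 (long), close to the long OVA values.

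Monocyte, macrophage and dendritic cell genes moved in both directions. Of 22 tested, 13 fell and 5 rose, with a median of -0.49 (11 lower, 5 higher and -0.56 with the length trend removed). The C1q chains C1qa, C1qb and C1qc, made by tissue macrophages, changed by -1.67 ± 0.15, -1.60 ± 0.15 and -1.66 ± 0.13, and C1qa stood at 298, 225, 194 and 236 FPKM in short and 79.2, 72.5, 63.4 and 80.0 in long OVA. Ccr2, a chemokine receptor of monocytes, changed by -1.22 ± 0.11, while other monocyte genes rose: Ly6c2, an antigen of inflammatory monocytes, by 1.02 ± 0.17, from 15.1 ± 0.925 to 32.5 ± 11.9 FPKM, and the fractalkine receptor Cx3cr1 by 1.06 ± 0.25, from 3.76 ± 1.34 to 8.17 ± 1.84. The 5 that rose were Clec9a, Ly6c2, Cx3cr1, Gpnmb and Zbtb46, the last of which did not pass without long library a or c or short library 1 or 2. Clec9a, a receptor of conventional dendritic cells, rose by 0.99 ± 0.10, from 10.7 ± 1.21 to 21.8 ± 3.28 FPKM, against 24.4 ± 2.27 and 29.7 ± 1.76 in short and long PBS. Gpnmb, a glycoprotein of lipid-laden macrophages, rose by 1.47 ± 0.39, and its long values ran from 6.02 to 31.3 FPKM, overlapping the short values.

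Of 19 complement and acute phase genes 13 fell, 10 by at least 2-fold, and 2 rose, with a median of -1.16 (-0.83 with the length trend removed). The acute phase gene Saa3 changed by -2.77 ± 0.23, from 36.4 ± 12.1 to 4.88 ± 1.61 FPKM, properdin (Cfp) by -1.57 ± 0.12, and the cytokine Il6 by -1.87 ± 0.11, from 1.74 ± 0.379 to 0.105 ± 0.0272. Of 13 genes of MHC class II presentation 9 fell and none rose (8 and none with the length trend removed). H2-Aa, an MHC class II chain, fell by 1.11 ± 0.14 on the log2 scale and the protease Ctss, which trims the class II chaperone, by 1.11 ± 0.16. Of 22 interferon response genes 2 rose, a smaller share than over all genes, and 6 fell, a share near that over all genes (1 and 4 with the length trend removed), with the chemokine Cxcl10 at -1.39 ± 0.22. Of 16 alveolar macrophage and lipid handling genes 4 rose, a smaller share than over all genes, and 4 fell, a share near that over all genes (3 and 4 with the length trend removed).

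Neutrophil genes were split. Of 20 tested, 8 fell and 2 rose (6 and 3 with the length trend removed). Cxcl1 (chr5:90891241-90893115), a neutrophil chemokine, stood at 36.5, 76.4, 32.8 and 49.7 FPKM in short and 8.14, 4.21, 4.96 and 5.41 in long OVA (-2.96 ± 0.29). Retnlg, a resistin-like protein of neutrophils and myeloid cells, changed by -2.40 ± 0.30. The granule gene S100a8 did not pass, at 14.4 ± 5.56 and 16.3 ± 4.67 FPKM, nor did Ngp, at 7.99 ± 6.29 and 8.14 ± 4.78. Cxcr1, a receptor of neutrophil chemokines, rose by 1.77 ± 0.25 at low levels, from 0.0723 ± 0.086 to 1.51 ± 0.642 FPKM.

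In the alveolar and ciliated cell lists more genes rose than fell. Of 13 alveolar type 1 cell genes 9 rose and 1 fell (6 and 0 with the length trend removed), with a median of 0.56. The one that fell was Hopx, a homeodomain protein (-0.66 ± 0.26, adjusted p = 0.0475), named after its values were seen. Hopx did not pass with the length trend removed (-0.38), nor without long library a (-0.39) or d or any 1 short library. Akap5, a scaffold protein of that list, rose by 1.45 ± 0.14 (0.93 with the length trend removed) and Vegfa, which supports capillaries, by 0.91 ± 0.09, and both also rose in long against short PBS (1.10 ± 0.16 and 0.55 ± 0.11). Of 14 alveolar type 2 cell genes 8 rose and 3 fell (8 and 2 with the length trend removed). Abca3, the lipid transporter of surfactant, rose by 1.20 ± 0.09 (0.69 with the length trend removed), from 232 ± 25.9 to 532 ± 34.2 FPKM, Lpcat1, which makes surfactant lipid, by 1.15 ± 0.06, and Nkx2-1, the lung epithelial transcription factor, by 0.88 ± 0.07. Surfactant protein genes were divided. Sftpb, named after its values were seen, rose by 0.76 ± 0.11, from 1123 ± 131 to 1908 ± 259 FPKM with no overlap, while the 3 genes of the list that fell encode the other surfactant proteins. Sftpd stood at 642, 703, 604 and 648 FPKM in short and 350, 310, 320 and 312 in long OVA (-1.004 ± 0.08), Sftpa1 fell by 0.85 ± 0.11 on the log2 scale, and Sftpc by 0.51 ± 0.11, though Sftpc did not pass with the length trend removed (-0.07) and both turned positive with quantile scaling (0.13 for Sftpa1 and, passing, 0.55 for Sftpc).

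Of 15 ciliated cell genes 8 rose and none fell, the same counts with the length trend removed, with medians of 0.87 and 0.41. Hydin and Dnah9, parts of the ciliary axoneme with very long transcripts, rose by 1.59 ± 0.23 and 1.41 ± 0.24. With the length trend removed Hydin stood at 0.61 and Dnah9 did not pass (0.49). Cfap43, another axoneme gene, rose by 1.33 ± 0.21 (0.87 with the length trend removed). Of 11 club cell genes 2 rose and 2 fell (4 and 2 with the length trend removed). Cyp2f2, the club cell cytochrome, rose by 0.48 ± 0.14 (0.86 with quantile scaling), from 721 ± 118 to 1002 ± 142 FPKM, against 1745 ± 206 and 1400 ± 177 in short and long PBS. Of 13 stressed epithelium genes 5 fell and none rose (4 and 1 with the length trend removed).

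In the vessel wall 10 of 20 endothelial genes rose and 5 fell (7 and 5 with the length trend removed). The growth factor receptor Kdr rose by 1.06 ± 0.12 (0.60 with the length trend removed) and the junction protein Cdh5 by 0.81 ± 0.09. The genes that fell were Selp, Sele, Vcam1, Car4 and Cldn5 (the last not passed at -0.29 with the length trend removed), of which the first 3 encode adhesion molecules that capture leukocytes. Selp (chr1:164115264-164150026) stood at 55.5, 69.1, 52.8 and 58.2 FPKM in short and 16.4, 7.94, 15.1 and 18.2 in long OVA (-2.05 ± 0.20, adjusted p = 2.47e-06), and Sele and Vcam1 changed by -1.45 ± 0.24 and -0.98 ± 0.14.

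Smooth muscle and contraction genes went in both directions and depended on the length trend. Of 20 smooth muscle genes 8 rose and 3 fell (5 and 1 with the length trend removed). Acta2 (chr19:34241090-34255590), the smooth muscle actin, stood at 235, 244, 192 and 260 FPKM in short and 146, 166, 161 and 159 in long OVA (-0.55 ± 0.12, adjusted p = 0.00142). No long value reached the short ones, and PBS lungs averaged 88.5 and 114 FPKM. The myosin light chain kinase Mylk rose by 0.92 ± 0.07 (0.31 with the length trend removed), smoothelin (Smtn) by 0.95 ± 0.07 and the integrin Itga8 by 1.09 ± 0.08 (0.64 with the length trend removed). In the muscarinic and contraction signalling list 12 of 22 rose and 4 fell, but 7 and 7 with the length trend removed. Rock2, a kinase of calcium sensitization, rose by 0.79 ± 0.08 (0.19 with the length trend removed) and Itpr1, a calcium release channel, by 0.97 ± 0.08 (0.24). Rgs4, which ends G protein signals, fell by 1.58 ± 0.11 on the log2 scale. The muscarinic receptor Chrm3 stood at 0.597 ± 0.159 and 1.11 ± 0.365 FPKM (0.53 ± 0.16, adjusted p = 0.0107) and did not pass with the length trend removed (0.26). Chrm2 did not pass, at 0.539 ± 0.137 and 0.669 ± 0.242 FPKM.

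Matrix genes were split as well, with shares of higher and lower genes near those over all genes. Of 35 tested, 11 rose and 8 fell (6 and 9 with the length trend removed, where the median turned from 0.17 to -0.17), and in PBS lungs 14 rose and 1 fell in the long protocol. Timp1 (chrX:20870166-20874735), an inhibitor of matrix proteases, stood at 41.1, 32.1, 31.7 and 44.1 FPKM in short and 4.33, 1.88, 4.23 and 3.29 in long OVA (-3.30 ± 0.21, adjusted p = 1.90e-07). The fibrillar collagen Col1a1 did not pass, at 16.3 ± 4.78 and 18.6 ± 5.24 FPKM (0.20 ± 0.24, adjusted p = 0.512), while Col3a1 fell by 0.73 ± 0.22 on the log2 scale (-1.15 with the length trend removed). Both rose in long against short PBS, by 1.72 ± 0.27 and 1.30 ± 0.25, so that long OVA and long PBS averaged 18.6 and 23.7 FPKM for Col1a1 and 53.7 and 54.9 for Col3a1. Higher in long OVA were Col12a1 (1.88 ± 0.16), the basement membrane chain Col4a2 (1.17 ± 0.11) and Col6a3 (1.13 ± 0.14), all of long transcripts and all also higher in long PBS. With the length trend removed these 3 stood at 1.06, 0.66 and 0.41.

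Of 22 genes of TGF-beta and growth factors 12 rose and 2 fell (9 and 3 with the length trend removed). Ltbp2, a matrix protein of the latent TGF-beta binding family, rose by 1.01 ± 0.12 (0.49 with the length trend removed) and Tgfbi, a TGF-beta-induced matrix protein, fell by 0.97 ± 0.10 on the log2 scale. Tgfb1 itself did not pass, at 10.5 ± 1.26 and 9.81 ± 0.148 FPKM (-0.08 ± 0.09, adjusted p = 0.444).

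**Figure D4:**
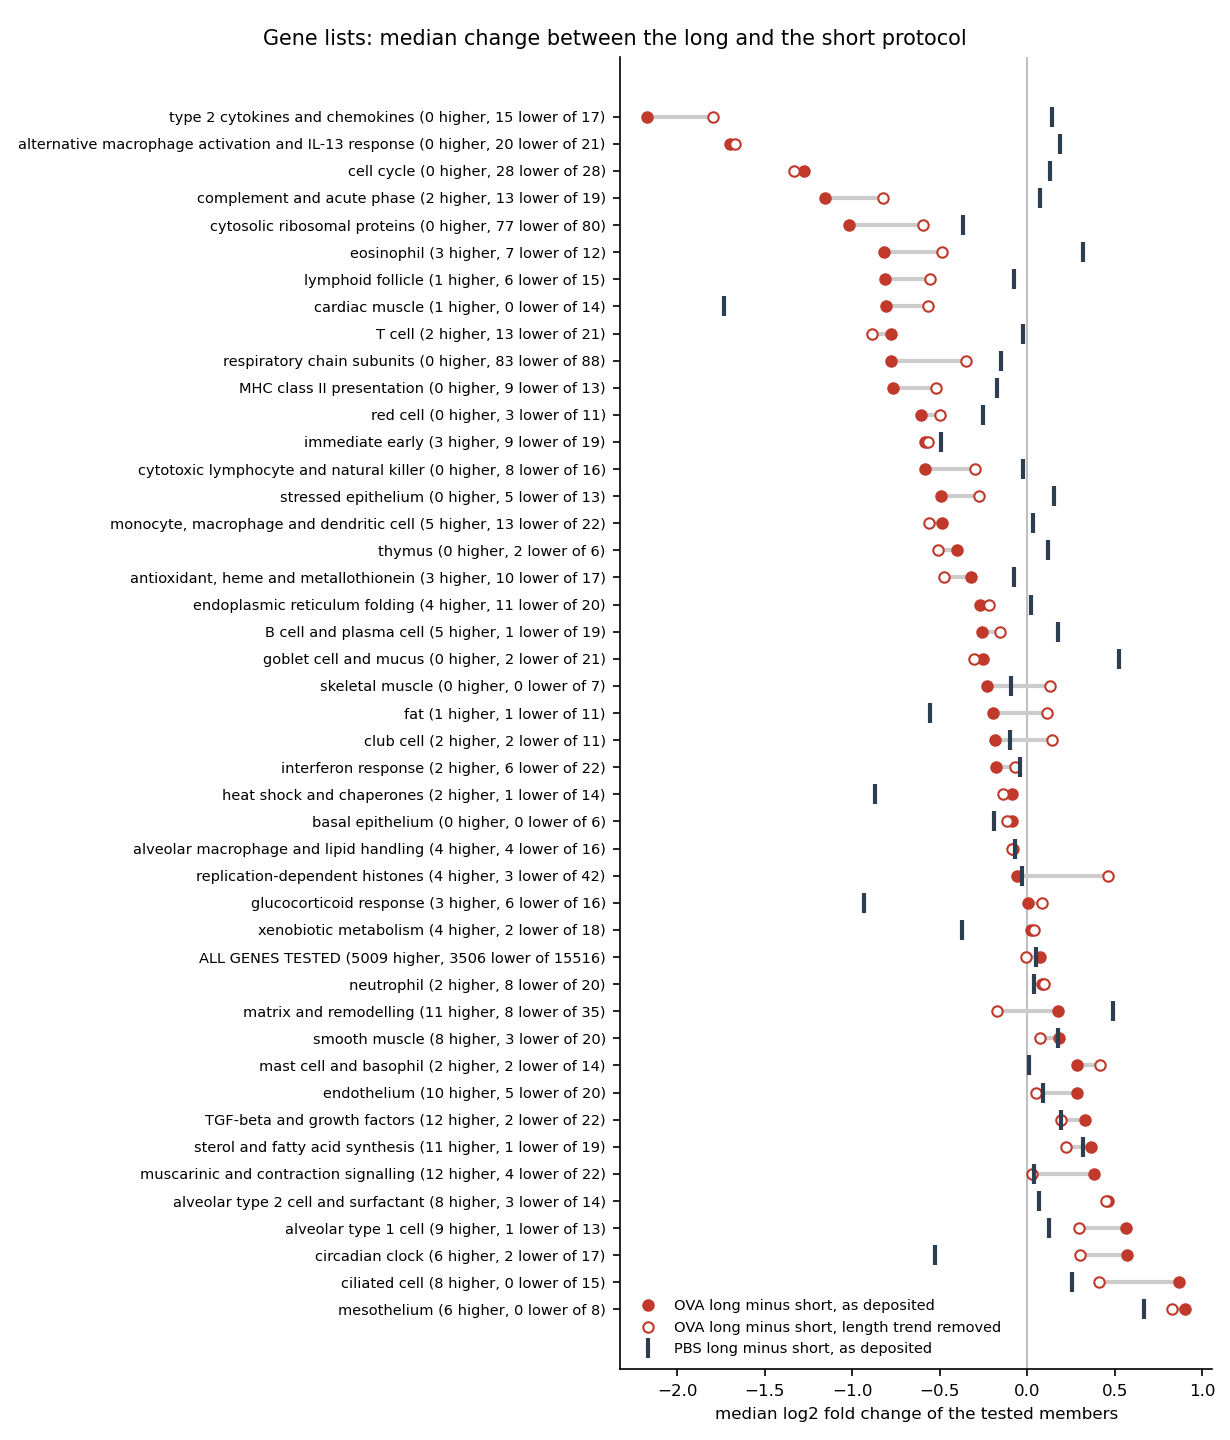
Median log2 fold change of the tested members of each gene list, long minus short, in OVA lungs as deposited (filled), in OVA lungs with the length trend removed (open) and in PBS lungs (dark tick), with counts of higher and lower genes in OVA as deposited. Type 2, alternative macrophage and cell cycle lists have the lowest OVA medians (-2.17, -1.70 and -1.28) beside PBS medians of 0.14, 0.19 and 0.13, and the grey line shows how far removal of the length trend moves a list.

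Clock and stress genes moved in part alike and in part apart in OVA and PBS lungs. The median over the clock genes was 0.57 in OVA and -0.53 in PBS. Of 17 circadian clock genes 6 rose and 2 fell in OVA (5 and 2 with the length trend removed), against 2 higher and 1 lower in PBS. The negative PBS median thus comes mostly from changes that did not pass. Per1, a light- and steroid-responsive clock gene, stood at 4.81, 7.41, 11.6 and 4.31 FPKM in short and 17.5, 27.3, 13.7 and 16.2 in long OVA (1.40 ± 0.36), while PBS lungs averaged 30.5 in short and 13.98 in long. Cry2 rose by 0.81 ± 0.15 and Nfil3 fell by 1.22 ± 0.19 on the log2 scale. The labels do not state the hour of sampling. Of 16 glucocorticoid response genes 6 fell and 3 rose (6 and 2 with the length trend removed), against 9 lower and none higher in PBS. Fkbp5, a sensitive target of the glucocorticoid receptor, fell by 0.67 ± 0.14 in OVA on the log2 scale and by more in PBS (OVA change minus PBS change 0.83 ± 0.21), and Angptl4, a lipoprotein lipase inhibitor, changed by -1.78 ± 0.28 and -2.31 ± 0.32. Of 14 heat shock genes 2 rose and 1 fell in OVA, smaller shares than over all genes, against 9 lower in PBS. Hspe1 changed by -0.84 ± 0.13 in OVA (-0.39 with the length trend removed) and by -1.10 ± 0.15 in PBS. Of 19 immediate early genes 9 fell and 3 rose in OVA (11 and none with the length trend removed) and 8 fell in PBS, among them Fos at -0.92 ± 0.10 and -1.01 ± 0.12 and Junb at -1.33 ± 0.10 and -0.50 ± 0.12.

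Of 19 genes of sterol and fatty acid synthesis 11 rose and 1 fell (9 and 2 with the length trend removed). Fasn, the fatty acid synthase, rose by 1.56 ± 0.11 (0.82 with the length trend removed), from 59.9 ± 3.30 to 178 ± 17.4 FPKM. Lpl, the lipoprotein lipase, rose by 0.71 ± 0.09 (0.46 with the length trend removed). Of 17 antioxidant, heme and metallothionein genes 10 fell and 3 rose (11 and 1 with the length trend removed), with Gpx1, the glutathione peroxidase, at -1.09 ± 0.08, the mitochondrial dismutase Sod2 at -0.67 ± 0.08 (-1.13 with the length trend removed), metallothionein Mt2 at -1.92 ± 0.40 and catalase (Cat) higher by 0.61 ± 0.06. Of 20 genes of endoplasmic reticulum folding 11 fell and 4 rose (11 and 0 with the length trend removed), with the stress-induced secreted protein Manf at -0.79 ± 0.11.

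Genes of protein synthesis and respiration fell nearly as a whole and by moderate folds. Of 80 cytosolic ribosomal protein genes 77 fell and none rose, with a median of -1.02, and 76 fell with the length trend removed, with a median of -0.59. Rpl3 stood at 529, 449, 466 and 441 FPKM in short and 272, 252, 247 and 257 in long OVA (-0.87 ± 0.06), and its values fell in PBS too (-0.29 ± 0.07). The summed FPKM of these genes was 47308 to 59084 in short and 22942 to 27540 in long OVA, and 38 of the 80 fell in PBS. A sum above every short OVA library also occurred outside the comparison, at 65236 in library 4 of the short methacholine group. Deviations in that library followed transcript length with a rho of -0.62, and the rest of its group held 28893 to 35357. The cause of these levels was not tested. Of 88 nuclear-encoded respiratory chain subunits 83 fell and none rose, with a median of -0.78 (64 lower and -0.35 with the length trend removed), among them Uqcrq of complex III at -1.01 ± 0.07. Both lists consist of short transcripts, with median lengths of 814 and 745 bases against 2859 over all genes tested. Of 42 histone genes, also short and with near-identical copies, 4 rose and 3 fell, but 17 rose and none fell with the length trend removed, and H2bc18 and H4c14 rose by 0.97 ± 0.26 (1.63 with the length trend removed) and 2.03 ± 0.24.

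Some of the largest changes lay outside these lists or went with tissue at the margin of the lung. Msln and Upk3b, markers of the mesothelium that covers the lung, rose by 2.02 ± 0.53 and 2.10 ± 0.48, but Msln stood at 16.7, 83.7, 160 and 24.0 FPKM in short and 209, 178, 211 and 194 in long OVA, so that the spread lay in the short libraries. Of 8 mesothelial genes 6 rose, and the summed FPKM of the list was 116 to 336 in short and 342 to 414 in long OVA. The part of the surface tissue in these changes was not tested. Cardiac muscle genes, from vessel walls or heart, did not pass except Ryr2 (1.22, higher), which did not pass with the length trend removed (0.20), with all 6 groups in the fit, or without long library a or d or short library 2, and their summed FPKM overlapped at 72.3 to 316 and 41.7 to 197. Of 11 red cell genes 3 fell (1 with the length trend removed or without short library 2), among them the globin Hbb-bs (-1.76 ± 0.70, adjusted p = 0.0464), which has a near-identical copy and did not pass without long library c or d or any 1 short library (-1.94 to -1.14). Of the skeletal muscle, fat, thymus, basal epithelium and xenobiotic metabolism lists, 0 of 7, 1 of 11, 0 of 6, 0 of 6 and 4 of 18 rose and 0, 1, 2, 0 and 2 fell (1, 0, 0, 0 and 4 higher and 0, 1, 2, 0 and 1 lower with the length trend removed).

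Prlr, the prolactin receptor, rose by 2.74 ± 0.30, from 0.263 ± 0.156 to 4.68 ± 1.53 FPKM, but by 0.59 when gene values were sums of the transcript values, Abca17, a lipid transporter, by 2.58 ± 0.15, and Oosp1, an oocyte-secreted protein, by 2.19 ± 0.21, from 0 in 3 of 4 short libraries and 0.488 in the other. Cyp26b1, which clears retinoic acid, rose by 2.59 ± 0.86 and stood at 22.9, 26.8, 114 and 104 FPKM in long OVA, but did not pass without long library c or d or short library 1 or 2 (2.21 to 2.35), and Angptl7, a secreted angiopoietin-like protein, rose by 2.23 ± 0.48. Mdm4, a regulator of p53, stood at 9.40, 15.9, 18.6 and 11.2 FPKM in short and 32.2, 127, 126 and 131 in long OVA (2.73 ± 0.56), with 115 and 60.6 on average in short and long PBS. H2ac19, a histone gene, rose by 2.43 ± 0.95 through 2 libraries, at 15.2, 18.4, 0.00807 and 0.186 FPKM in long OVA, and did not pass without long library a (1.67) or b (1.58) or without any 1 short library. Among decreases, Sap18b, a near copy of Sap18, stood at 63.6, 1.32, 54.3 and 53.5 FPKM in short and at 0.489 to 0.874 in long OVA (-4.41 ± 0.85, and -5.65 without short OVA library 2). Fgf23, best known as a bone hormone, changed by -3.82 ± 0.22, the homeobox gene Msx3 by -3.37 ± 0.40 and Serpinb2, a plasminogen activator inhibitor, by -3.10 ± 0.31.

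The OVA and PBS changes overlapped in part. Of the genes that passed in OVA, 558 were higher and 173 lower in both OVA and PBS, and 30 and 30 passed in opposite directions. The 558 shared higher genes are thus most of the 659 higher genes in PBS and few of the 5009 in OVA, and the PBS test, with 3 libraries a group, called fewer genes. Of the 585 genes at least 2-fold higher in OVA, 549 had a positive change in PBS, and of the 468 at least 2-fold lower, 221 had a negative one. These counts are for FPKM as deposited, where the PBS median over all genes tested was 0.05. The share of all genes with a PBS change of either sign was not counted, so the counts have no background to be read against. Across 15516 genes, which are not independent, the changes had a Spearman rho of 0.42 (0.33 with the length trend removed), and both followed transcript length. The difference between the OVA and the PBS change was itself tested, and 4517 genes passed (29.1%). Of the 5009 genes higher in long OVA the difference was positive for 2237, and of the 3506 lower genes it was negative for 2012. With the length trend removed, 2669 genes passed. By list, the difference was negative and passed for 14 of 17 type 2 genes, 17 of 21 alternative macrophage genes and 26 of 28 cell cycle genes. It was positive for 9 of 16 glucocorticoid response genes and 8 of 17 clock genes. None in these lists passed with the opposite sign except 1 clock gene. With the length trend removed these counts were 13, 19, 28, 9 and 6. The OVA and PBS changes have no library in common. Of 35 genes named here that passed in PBS, 26 did not pass when 1 PBS library was left out, among them Clca1, Col3a1, Prlr, Rpl3, Mgp, Ramp3, Tnfaip6, Rab20, Junb, Col12a1 and Col4a2 without long PBS library 1 and Vegfa and Lrp2 without long PBS library 2.

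For single genes the difference was -6.91 ± 0.94 for Retnla, -5.89 ± 0.75 for Rnase2a and -5.30 ± 1.14 for Chil4, and 3.75 ± 0.79 for Jchain. It did not pass for Prlr (1.11 ± 0.45, adjusted p = 0.0827), which rose in PBS by 1.63 ± 0.34, nor for Angptl4 (0.53 ± 0.42, adjusted p = 0.380), Col6a3 (0.13 ± 0.21, adjusted p = 0.683) and Vegfa (0.35 ± 0.14, adjusted p = 0.0807). Genes that rose in both and more in OVA include Lrp2, an endocytic receptor with a very long transcript (2.18 ± 0.16 in OVA and 1.01 ± 0.18 in PBS), and the histone methyltransferase Kmt2d (2.17 ± 0.12 and 1.06 ± 0.13). Their OVA changes were 1.21 and 1.07 with the length trend removed. Genes that fell in both and more in OVA include Mgp, an inhibitor of calcification (-1.36 ± 0.08 and -0.34 ± 0.09, with -0.84 in OVA with the length trend removed), Ramp3, a receptor-modifying protein (-1.70 ± 0.17 and -0.79 ± 0.19), Tnfaip6, a hyaluronan-binding protein (-1.88 ± 0.14 and -0.58 ± 0.16) and the GTPase Rab20 (-1.29 ± 0.09 and -0.45 ± 0.10).

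**Figure D5:**
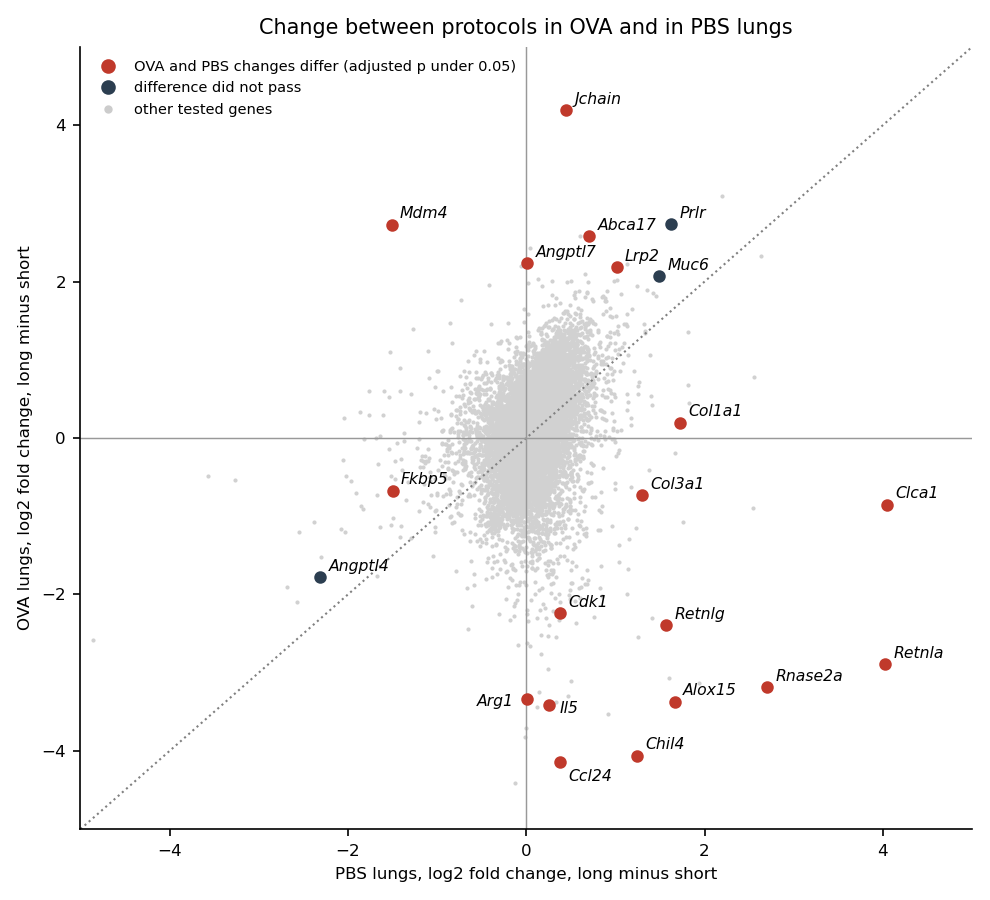
Log2 fold change, long minus short, in OVA lungs (y axis) against PBS lungs (x axis) for each tested gene, with named genes in red where the 2 changes differ (adjusted p under 0.05) and dark where they did not pass, and a dotted line of equal change. Retnla lies at 4.02 in PBS and -2.89 in OVA, Jchain at 0.45 and 4.20, and Prlr at 1.63 and 2.74 near the line.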

How the data were processed

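The 22 mouse lungs were sequenced as TruSeq Stranded Total RNA libraries after RNeasy extraction with a DNase I step, per the labels' protocols. Both matrices the authors deposited hold FPKM, for 20938 genes and for 36844 transcripts. Trim Galore, STAR, DESeq2 and the build mm10 are named in the submitters' processing notes, without roles. Their versions, and the program that computed FPKM, are not stated in the labels or file headers. The 4 long OVA columns could be matched to their group but not to a numbered mouse and are called a to d, and the short OVA and PBS columns carry the labels' numbers. Titles call PBS mice normal where the treatment text has them sensitized, and the series design names trachea where sample labels name lung; the sample labels were followed. No 2 libraries held identical values, and 26 gene names have the form of dates.

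Genes with FPKM of at least 0.1 in at least 3 of the 14 OVA and PBS libraries were tested on log2(FPKM + 0.5), which understates folds of low genes, with limma 3.58.1 in R 4.3.3 (1 coefficient per group, eBayes with an intensity trend, two-sided, Benjamini-Hochberg over all genes tested in each of 3 comparisons). FPKM are not counts, so no count model was used. The length trend was removed per library from log2 values against the abundance-weighted transcript length. For the 4889 genes of 1 transcript that were checked, the value in the transcript matrix is a fixed multiple of that in the gene matrix. This multiple spans 0.121 to 5.90 (1st to 99th percentile), so levels were not compared between genes. Genes with several transcripts were not checked in this way. Positions are from GENCODE on mm10, and promoters from RefSeq on GRCm38.p6.

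The members, gene lists and key genes were chosen with earlier results of these data known. Genes named were the 14 largest increases and decreases that passed with a mean of at least 1 FPKM in the higher group, the 4 called genes of lowest p per list, 30 key genes, and the 6 largest in each direction shared with PBS or differing from it. Other list members, where counts of 5 or fewer are spelled out or genes that did not pass are given, were named after their values were seen. Some genes that the rule takes in are not reported here. In simulated data with 15516 genes, 88% of 100 changes of log2 1 and 98% of 100 changes of log2 2 were recovered in OVA long vs short, and 13 unchanged genes were called. With a simulated length trend that was then removed, these were 94%, 97% and 24 genes. Changed genes had a mean above 1 FPKM and noise was independent between genes. Far fewer genes changed than passed in the data, so the simulations do not give the error rate of the calls reported. As alternatives, the pseudocount was 0.1 or 1, the filter 1 FPKM or absent, the scaling quantile or median-of-ratios, eBayes robust, libraries weighted by quality, gene values summed from transcripts, and the fit extended to all 6 groups or limited to those compared. The length trend was removed, a 2-fold limit set, a replicate block added and each library left out.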

Additional observations from a re-analysis of the deposited data

Results flagged for a closer look

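In the OVA groups of 4, 22 of 316 sets of values had 1 library far from the other 3 in a Dixon outlier test on FPKM without logs. Chance gives about 5% only for independent sets of normal values. These sets share the same libraries and their genes were chosen by results, so the count does not measure an excess. Long OVA library b was such a library for 9 genes. It was low in Chil4 (3.74 FPKM), Clca1 (48.9), Muc5b (70.4), Il13 (0.0510), Il1rl1 (3.03), Hydin (5.47) and Cfap43 (5.71), and high in Itga8 (116) and Clec9a (26.7). Long OVA library a was high in Il33 (308), Mki67 (21.0), Saa3 (7.29), Tnfrsf17 (1.67) and Manf (192) and low in Mdm4 (32.2). Long library c was high in Fasn (204), and long library d low in Hbb-bs (222). In short OVA, library 2 was low in Sap18b (1.32), library 3 low in Ccl7 (118) and Col6a3 (4.60), and library 1 low in Lpcat1 (56.4) and high in Oosp1 (0.488).

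For 110 of the 158 genes of the text, the change from short to long differed between OVA and PBS lungs when the difference was tested (OVA change minus PBS change, log2, 4 OVA and 3 PBS libraries in each protocol). The values below are for FPKM as deposited. For 10 genes the difference lost its call when 1 library was left out: Agr2, Angptl7, Clca1, Cxcl10, Hydin, Kdr, Manf, Ryr2, Sap18b and Sod2. The OVA change itself did not pass for Clca1 (-0.85) and Col1a1 (0.20). Across 15315 genes, which are not independent, the difference had a Spearman rho of 0.47 with transcript length. With the length trend removed no difference passed in the ciliated cell, cardiac muscle and interferon lists, which hold Hydin, Ryr2 and Cxcl10. Calls went from 4 to 1 positive in the matrix list and from 7 to 3 negative for MHC class II, but from 26 to 28 negative for the cell cycle. Among cytokines and chemokines the difference was negative for Il5 (-3.67), Il13 (-3.39), Il4 (-2.63), Il10 (-1.96), Il21 (-1.45), Il6 (-1.88), Ifng (-1.20) and Il33 (-0.91), and for Ccl24 (-4.52), Ccl7 (-4.45), Ccl2 (-3.56), Cxcl1 (-3.20), Ccl11 (-2.38) and Cxcl10 (-1.15).

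Among genes of alternative macrophage activation and mucus it was negative for Retnla (-6.91), Chil4 (-5.30), Alox15 (-5.04), Clca1 (-4.90), Arg1 (-3.35), Chil3 (-2.62), Agr2 (-2.55), Socs1 (-2.35) and Cd209a (-1.94). Among eosinophil and other leukocyte genes it was negative for Rnase2a (-5.89), Retnlg (-3.97), Ccr3 (-3.79), Prg2 (-2.47), Ear2 (-2.14), Gzmb (-2.14), Il2ra (-2.09), Epx (-2.08), Cebpe (-1.79), Ccr2 (-1.78), Mcpt8 (-1.77), C1qc (-1.73), Cfp (-1.68), C1qb (-1.66), C1qa (-1.52), Il1rl1 (-1.48), Ctss (-1.26) and H2-Aa (-0.94), and positive for Jchain (3.75), Cxcr1 (2.50), Gpnmb (2.33), Ly6c2 (1.34), Tnfrsf17 (0.92), Lpl (0.81), Clec9a (0.71) and Kit (0.67).

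Among cell cycle and acute phase genes it was negative for Cdk1 (-2.62), Rrm2 (-1.93), Pcna (-0.80) and Saa3 (-2.93). In the vessel wall, matrix and muscle it was negative for Timp1 (-3.77), Selp (-2.66), Col3a1 (-2.03), Col1a1 (-1.52), Rgs4 (-1.34), Sele (-1.32), Tnfaip6 (-1.30), Vcam1 (-1.28), Mgp (-1.02), Tgfbi (-0.98), Acta2 (-0.92), Ramp3 (-0.92) and Car4 (-0.82). There it was positive for Ryr2 (2.05), Col12a1 (0.98), Itga8 (0.89), Ltbp2 (0.79), Rock2 (0.75), Mylk (0.69), Itpr1 (0.68), Col4a2 (0.68), Cdh5 (0.63), Smtn (0.62) and Kdr (0.55).

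In the epithelium it was negative for Sftpd (-0.89) and Sftpa1 (-0.66) and positive for Hydin (1.12), Lpcat1 (0.83), Sftpb (0.81), Cyp2f2 (0.80), Abca3 (0.73) and Nkx2-1 (0.55). Among clock, stress and metabolic genes it was positive for Per1 (2.67), Cry2 (1.30), Fasn (1.07), Fkbp5 (0.83) and Cat (0.54) and negative for Nfil3 (-1.35), Uqcrq (-0.96), Junb (-0.83), Gpx1 (-0.79), Rpl3 (-0.58), Manf (-0.52) and Sod2 (-0.39). Among the remaining genes it was positive for Mdm4 (4.24), Oosp1 (2.26), Angptl7 (2.22), H4c14 (1.90), Abca17 (1.88), H2bc18 (1.48), Lrp2 (1.17) and Kmt2d (1.12) and negative for Sap18b (-4.28), Fgf23 (-3.81), Msx3 (-3.71), Serpinb2 (-3.60) and Rab20 (-0.84).

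Outside the comparison, 3 of the 8 methacholine libraries of the series listed more genes at 0 than any OVA or PBS library: 34.3% in long library a, 33.8% in long library c and 28.3% in short library 1. In short methacholine library 4, deviations followed transcript length with a rho of -0.62, beyond the range of short OVA.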

How the results depend on the processing

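The count of genes in OVA long vs short was 8515 and stayed between 7811 (without short OVA library 1) and 8280 (without long OVA library b) as single libraries were left out. It was 4346 when all 6 groups, methacholine included, shared 1 estimate of spread, and 1053 with a limit of 2-fold. In PBS long vs short the count of 971 dropped to 181, 279 and 221 when long library 2, long library 1 or short library 1 was left out, and the highest such count was 1128 (short library 2 left out). It was 26 with all 6 groups, 326 with the PBS groups alone and 87 with a limit of 2-fold. The difference between the OVA and PBS changes passed for 4517 genes, for 3360 to 4497 as single libraries were left out, for 295 with all 6 groups, for 2669 with the length trend removed and for 666 with a limit of 2-fold. The cause of these shifts was not tested.

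Among 141 genes of the text that passed in OVA, 119 kept call and direction in every setting that tested them, 17 did not pass with all 6 groups and 11 with the length trend removed. Of the 110 genes of the text whose OVA and PBS changes differed, 100 passed whichever library was left out. With a call in at least 1 of the settings, values turned sign for Sftpa1 (0.13) and Sftpc (0.55) with quantile scaling and for Ikzf2 (-0.24) and Scgb1a1 (0.58) with the length trend removed. In at least 1 setting 12 genes that passed neither there nor as reported also turned sign (Areg, Chrm2, Clca1, Col1a1, Il13ra1, Marco, Mcpt1, Mmp12, Muc5b, Ngp, S100a8 and Tslp). With a pseudocount of 0.1 the changes of the low genes Cebpe, Epx, Ifng, Il4, Il6, Mcpt8, Cxcr1, Oosp1 and Tnfrsf17 were over 1.5 times larger (for example -3.97 for Il4 and 3.28 for Cxcr1), and with quantile scaling those of Chil3 (-1.05), Ctss (-0.73), Rpl3 (-0.55), Sftpd (-0.66) and Cldn5 (-0.29) were over 1.5 times smaller. No paired analysis was possible for OVA because the long columns carry no number of the labels. A replicate block on the PBS groups alone gave 0 genes in limma (2990 at an unadjusted p under 0.05), and same-numbered PBS libraries did not deviate together (r of 0.006, -0.007 and -0.06). Depth limits the genes near 0 FPKM, whose folds depend on the 0.5 added.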
